A study of Homo sapiens with 5 samples.

Results

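Adenosine signaling and adenosine turnover were followed across 10 genes in the human small cell lung cancer (SCLC) cell line NCI-H209, cultured alone or with human brain microvascular endothelial cells (HBMECs). The genes were taken by symbol and joined by gene identifier to the deposited counts, which hold 64837 entries. They comprise 4 adenosine receptors (ADORA1, ADORA2A, ADORA2B and ADORA3), the ectonucleotidases ENTPD1 and NT5E, the intracellular enzymes ADK and ADA, and the nucleoside transporters SLC29A1 and SLC29A2. The symbols of 9 of the 10 were in the authors' table of the comparison, and ADORA3 was matched through the GENCODE annotation. The set was proposed with the counts and fold changes of this contrast in view, so that these values count as the ones the genes were chosen by. Their differences between the groups are therefore given as a description, without p-values.

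The control group was 3 libraries of untreated NCI-H209 cells, and the co-cultured group was 2 libraries of the same line that shared Transwell plates with HBMECs for 24 h. The endothelial cells sat on a porous insert above the tumor cells, so both shared the medium, and RNA was taken from the tumor cells. The paper grew HBMECs with Nu-serum besides fetal bovine serum, and NCI-H209 cells with fetal bovine serum alone. It does not state the medium used during co-culture. All cells are of a single established line, and the sources used here do not say whether control wells held an empty insert or whether libraries came from separate cultures. P-values thus measure the spread between these libraries only, which may be technical.

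Extracellular ATP is degraded in steps at the cell surface. ENTPD1, known as CD39, takes ATP and ADP to AMP, and NT5E, known as CD73, takes AMP to adenosine. The nucleoside then acts on 4 G protein-coupled receptors: ADORA1 and ADORA3 couple mainly to inhibitory G proteins that lower cAMP, and ADORA2A and ADORA2B to stimulatory G proteins that raise it. Equilibrative transporters such as SLC29A1 and SLC29A2 carry adenosine across the plasma membrane, and inside the cell ADK phosphorylates it to AMP while ADA deaminates it to inosine. Genes of this pathway, ADORA2B and NT5E among them, are known for their regulation by low oxygen in other cells.

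Totals on genes ran from 17317045 to 19157348 counts in control and were 18918787 and 15457071 counts in the co-cultured libraries. Counts on the strand of the directional kit were used, which took 92.3% to 93.1% of the reads assigned to either strand. Unmapped reads were more frequent after co-culture, at 15.9% and 16.8% against 8.13% to 8.48% in control. Uniquely mapped reads on no annotated exon of the kit's strand were less frequent, at 40.1% and 40.8% against 47.3% to 51.2%. This class takes in introns and the opposite strand of genes as well as the space between genes. The part of both differences in the results was not tested. Control replicate 1 stood apart from the other control libraries on the second principal component, which held 18.3% of the variance. A count of 3 was taken as the floor, equal to 0.154 to 0.198 CPM, which are counts scaled to a common library size by TMM. Floors cover counting error only.

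Enough reads for a test were found for 8 of the 10, which were fitted with 20360 genes in all, and ADORA3 and NT5E fell below the filter on low counts. At an adjusted p under 0.05, 2 of the 8 were higher (ADORA2B and ADK) and 3 were lower (ADORA1, ADA and SLC29A2) in co-cultured cells, where 18.4% of all genes tested were higher, 15% were lower and 33.4% were past this threshold on either side. The study's criterion for DEGs, read here as more than 1 on the log2 scale in either direction with an unadjusted p under 0.05, was met by ADORA2B on the higher side, as by 5.44% of all genes, and by ADORA1 on the lower side, as by 5.01%, or 10.5% of all genes on either side. The co-cultured libraries did not overlap with the control libraries for 6 of the 8, against 59.4% of all genes tested. The median log2 fold change was -0.37 over the 8 and -0.03 over all genes tested. Because the genes were selected on this contrast, nothing is read from these shares. With control replicate 2, control replicate 3, co-cultured replicate 1 or co-cultured replicate 2 left out, 3 of the 8 were past the threshold.

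**Figure D1:**
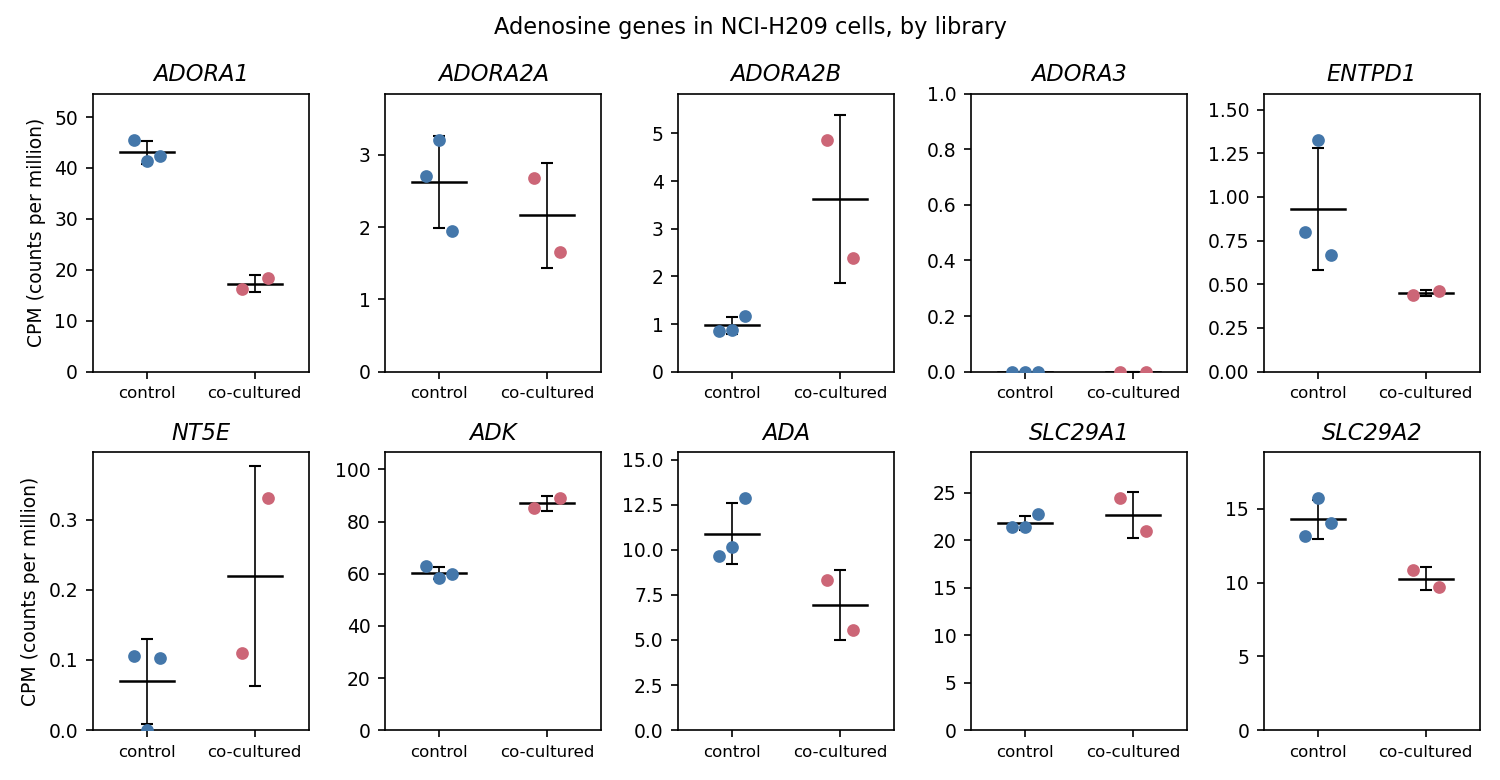
CPM of each of the 10 genes by library, with the 3 control libraries in blue and the 2 co-cultured libraries in red. Black lines are group means and bars are 1 SD, and each panel has its own axis from 0. ADORA1 is at 41.3 to 45.5 CPM in control and at 16.2 and 18.4 CPM in co-cultured cells, and ADORA3 is at 0 throughout.

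Among the receptors, ADORA1 carried most of the signal in control cells. It lies on chromosome 1 from 203090654 to 203167405 (GRCh38, plus strand). Control libraries held 856, 747 and 826 ADORA1 counts, against 296 and 279 with HBMECs. The mean was 43.0 ± 2.20 CPM alone (SD, n = 3) against 17.3 ± 1.59 with HBMECs (SD, n = 2), a level 2.49-fold lower (log2 fold change -1.32, standard error 0.11). Both co-cultured libraries were far below every control library, and the log2 fold change stayed between -1.41 and -1.21 when each library was left out in turn. In bulk RNA, a lower level in every cell and fewer cells with the transcript cannot be told apart. An antisense gene, AC105940.2, runs across the RefSeq start of ADORA1 on the other strand, and it was looked at after its values had been seen. It had 11, 20 and 23 counts in control against 4 and 4 with HBMECs (log2 fold change -1.97, standard error 0.53, adjusted p = 0.0203), and both co-cultured libraries were below every control library. How many of these reads came from ADORA1 itself on the wrong strand was not tested.

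ADORA2B, the receptor of low affinity for adenosine, was higher after co-culture. It lies on chromosome 17 from 15944917 to 15975746 (plus strand) and had 16, 16 and 23 counts in control against 89 and 36 with HBMECs. The mean of 0.971 ± 0.180 CPM alone (SD, n = 3) compared with 3.62 ± 1.76 with HBMECs (SD, n = 2, log2 fold change 1.90, standard error 0.35), or 3.74-fold higher. The groups did not overlap, but the co-cultured libraries were far from each other, at 4.86 and 2.38 CPM. Without co-cultured replicate 1, the higher of them, the log2 fold change was 1.29 and no longer past the threshold over all genes, and without co-cultured replicate 2 it was 2.32. No gene of the annotation overlaps an exon of ADORA2B on either strand, although a pseudogene of it, ADORA2BP1, is annotated on chromosome 1. Opposite-strand reads at ADORA2B numbered 4, 5 and 12 in control and 5 and 4 with HBMECs.

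ADORA2A, on chromosome 22 from 24417879 to 24442360 (plus strand), had 51, 58 and 38 counts in control against 49 and 25 with HBMECs. The groups overlapped, and the log2 fold change was -0.26 (standard error 0.31), ranging from -0.65 to 0.04 over the fits that each leave out 1 library. The readthrough gene SPECC1L-ADORA2A shares 56.8% of the exon bases of ADORA2A on the same strand, and reads that fit both genes were counted for neither, so this level is a lower limit. ADORA3, on chromosome 1 from 111499429 to 111503760 (minus strand), had 0 counts on either strand in all 5 libraries, which allows up to 3 counts in each. It lies inside TMIGD3, also at 0 counts, which shares 18.0% of its exon bases.

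The mix of receptor transcripts was read within each library. Levels were compared between genes as CPM per kb of annotated exon. Of the summed level of the 4 receptors, ADORA1 made up 89.9% to 91.7% in cells alone but 60.3% and 76.8% with HBMECs. The share of ADORA2B was 2.82% to 4.19% in control and 29.8% and 16.3% after co-culture. The ratio of ADORA1 to ADORA2B was 32.6, 28.4 and 21.9 in control against 2.02 and 4.72 with HBMECs. Summed over the receptors, the level was 10.97 to 11.84 CPM per kb in control and 6.41 and 5.72 CPM per kb after co-culture. As the level of ADORA2A is a lower limit, so is this sum, and the shares of ADORA1 and ADORA2B are upper limits in this respect.

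**Figure D2:**
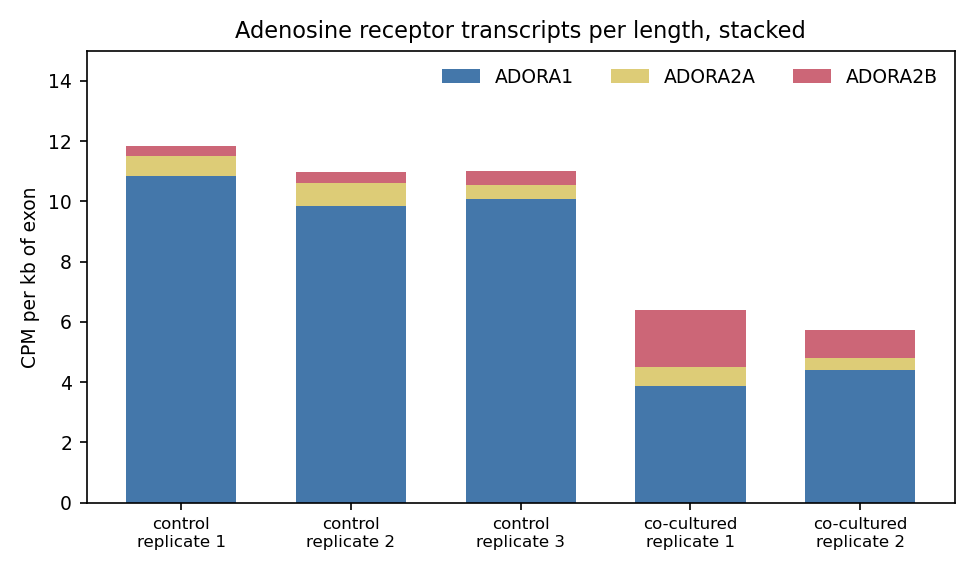
Stacked level of the adenosine receptor transcripts in each library, in CPM per kb of exon, with ADORA1 in blue, ADORA2A in yellow and ADORA2B in red. ADORA3 had 0 counts and is not drawn. The ADORA2A segments, and so the heights of the bars, are lower limits. The 3 control bars reach 10.97 to 11.84 and the 2 co-cultured bars 6.41 and 5.72, with a wider ADORA2B segment.

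The ectonucleotidases were scarce on the coding strand in both groups. ENTPD1, on chromosome 10 from 95711779 to 95869695 (plus strand), had 15, 24 and 13 counts in control against 8 and 7 with HBMECs. Both co-cultured libraries were lower, with a log2 fold change of -1.03 (standard error 0.47) that was not past the threshold over all genes. NT5E, on chromosome 6 from 85449584 to 85495791 (plus strand), had 2, 0 and 2 counts in control against 2 and 5 with HBMECs. The control libraries were all within the floor of 3 counts and 1 of the co-cultured libraries was above it, so no fold change is given.

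Most reads at both ectonucleotidase genes fell on the opposite strand. ENTPD1 had 103, 118 and 111 opposite-strand counts in control against 78 and 74 with HBMECs, and NT5E had 19, 34 and 18 in control against 31 and 17 with HBMECs. These made up 86.5% of the reads of ENTPD1 and 94.7% of those of NT5E in control. At ENTPD1 the annotated antisense gene ENTPD1-AS1 overlaps 6.51% of the exon bases, together with no other gene on that strand. ENTPD1-AS1 had 169, 187 and 180 counts in control against 150 and 127 with HBMECs (log2 fold change -0.20, standard error 0.14, adjusted p = 0.320), looked at after its values had been seen. At NT5E no gene is annotated on the other strand. Counted without regard to strand, ENTPD1 had a log2 fold change of -0.39 and NT5E of 0.35, neither past the threshold. The value of ENTPD1 thus depends on strand, and NT5E has no fold change on the coding strand to set beside it.

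**Figure D3:**
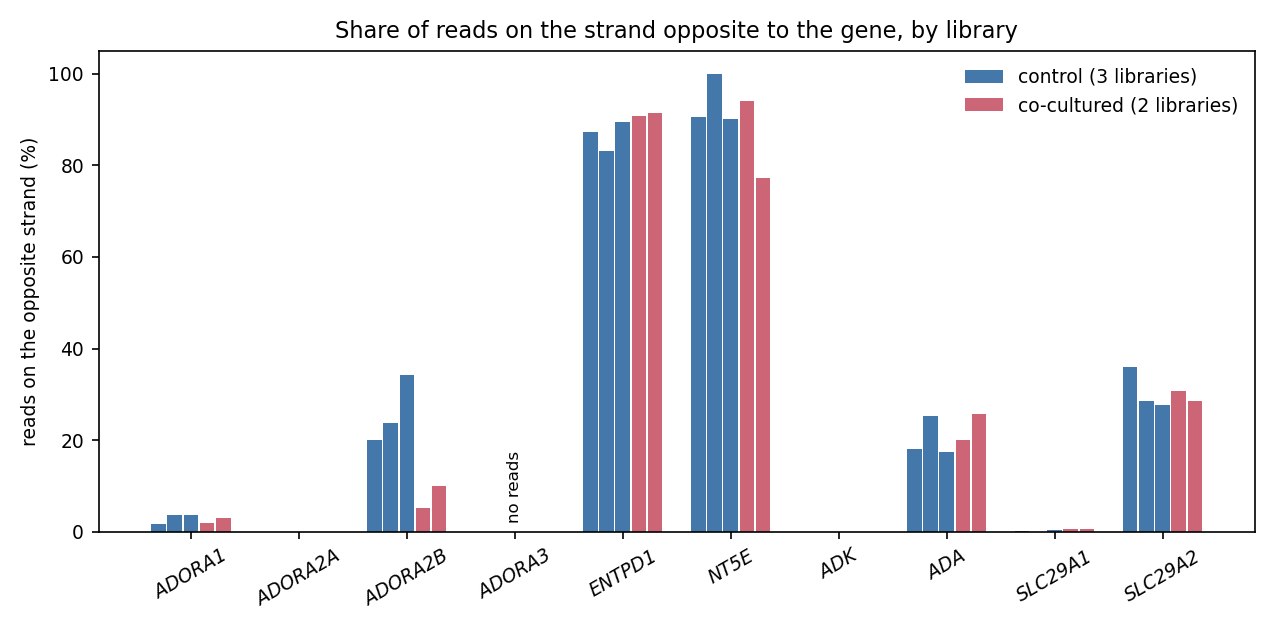
Share of the reads at each gene that fell on the strand opposite to it, in percent, with a bar for each library (control in blue, co-cultured in red). ENTPD1 (86.5% over the control group and 91.0% over the co-cultured group) and NT5E (94.7% and 87.3%) stand highest, SLC29A2, ADA and ADORA2B lie between, and the other tested genes are near 0.

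Of the enzymes that remove adenosine inside the cell, ADK was the most abundant of the 10 genes and was higher after co-culture, while ADA was lower. ADK, on chromosome 10 from 74151185 to 74709303 (plus strand), had 1184, 1053 and 1168 counts in control against 1556 and 1346 with HBMECs. Its CPM went from 60.3 ± 2.41 (SD, n = 3) to 87.0 ± 2.73 (SD, n = 2, log2 fold change 0.53, standard error 0.077), or 1.44-fold. The groups were well apart for ADK, and the log2 fold change ran from 0.50 to 0.57 with each library left out. ADA, on chromosome 20 from 44619522 to 44652233 (minus strand), had 182, 184 and 251 counts in control against 152 and 84 with HBMECs. Its mean was 10.9 ± 1.71 CPM alone (SD, n = 3) against 6.93 ± 1.95 with HBMECs (SD, n = 2, log2 fold change -0.64, standard error 0.21). The 2 co-cultured libraries were below the 3 control libraries, at 8.31 and 5.55 CPM, but differed from each other. On the other strand, where 20.1% of the control reads at ADA fell, PKIG overlaps ADA but only 1.61% of its exon bases. The source of these reads was not tested. Without co-cultured replicate 2 the log2 fold change of ADA was -0.39, without control replicate 2 it was -0.69 and without control replicate 3 it was -0.51, and in none of these was it past the threshold. Per kb of exon, ADK was 4.17 to 5.83 times as abundant as ADA in cells alone, against 9.17 and 14.4 times with HBMECs.

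Of the equilibrative transporters, SLC29A1 overlapped between the groups and SLC29A2 was lower after co-culture, and the difference between their responses was not tested. SLC29A1, on chromosome 6 from 44219505 to 44234151 (plus strand), had 403, 387 and 444 counts in control against 447 and 318 with HBMECs. Its CPM of 21.9 ± 0.762 (SD, n = 3) and 22.7 ± 2.42 (SD, n = 2) overlapped between the groups, with a log2 fold change of 0.06 (standard error 0.11). SLC29A2, on chromosome 11 from 66362521 to 66372214 (minus strand), had 247, 284 and 274 counts in control against 198 and 147 with HBMECs. It went from 14.3 ± 1.30 CPM alone (SD, n = 3) to 10.3 ± 0.786 (SD, n = 2, log2 fold change -0.47, standard error 0.14), with both co-cultured libraries below all control libraries. Leaving out control replicate 2, control replicate 3, co-cultured replicate 1 or co-cultured replicate 2 gave log2 fold changes of -0.40, -0.48, -0.55 and -0.40, none of them past the threshold. About 30.8% of the control reads of SLC29A2 were on the opposite strand, where the antisense gene AP001107.9 overlaps 10.3% of its exon bases. The ratio of SLC29A1 to SLC29A2 per kb of exon was 0.841 to 1.01 in control and 1.39 and 1.33 in the co-cultured libraries.

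**Figure D4:**
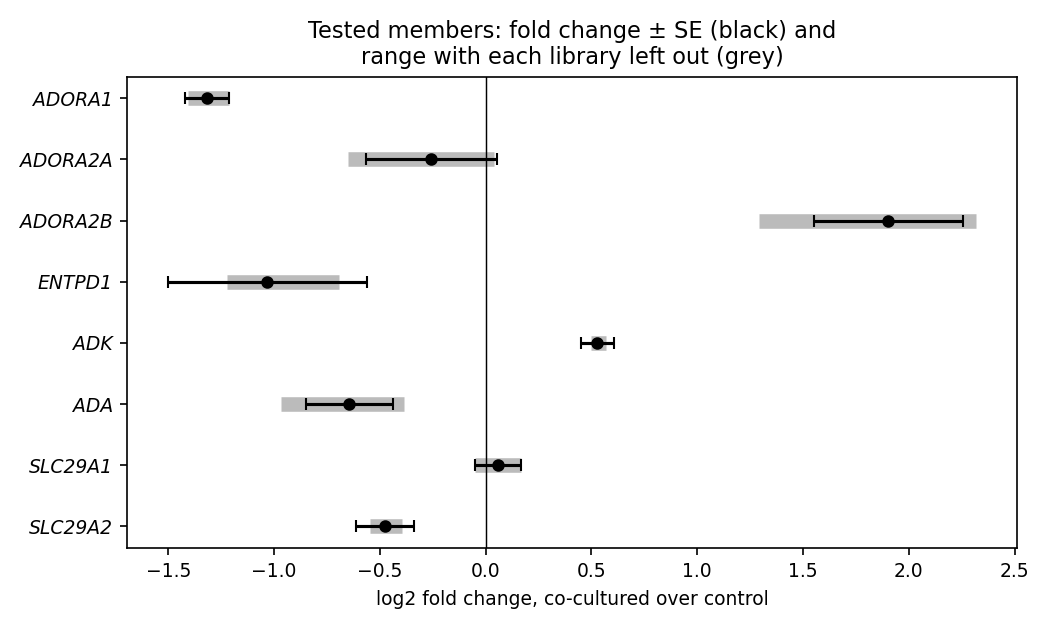
Log2 ratio of co-cultured to control cells for the 8 genes tested, with the standard error as black bars and the range of values with each library left out in turn in grey. ADORA1 at -1.32 and ADORA2B at 1.90 lie farthest from 0 on either side, and the grey ranges of ADORA2A and SLC29A1 cross 0.

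In control cells, the order of the levels per kb of exon was ADK (18.9), ADORA1 (10.3), SLC29A2 (5.25), SLC29A1 (4.96), ADA (3.82), ADORA2A (0.625), ADORA2B (0.381), ENTPD1 (0.133), NT5E (0.0154) and ADORA3 (0), each in CPM per kb as the mean of 3 libraries. SLC29A2 and SLC29A1 overlapped in their libraries, and so cannot be put in order. ADORA2A at 0.464 to 0.765 and ADORA2B at 0.333 to 0.462 nearly touched, although the level of ADORA2A is a lower limit. Among the 13697 protein-coding genes tested, the level of ADK was at percentile 85.2, that of ADORA1 at 68.4 and that of ENTPD1 at 3.21.

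Short stretches upstream of the starts of 5 genes are shown because they carry, or for ADORA1 lack, the core of the hypoxia response element. The core was searched as ACGTG and GCGTG, and the short site of the cAMP response element as TGACG, on both strands of RefSeq promoter windows of 300 bases (250 before and 50 after each start, GRCh38.p14). Windows were given for 8 of the 10 genes, 14 in all, and ADORA2A and SLC29A2 were not matched. Capitals mark the matches. The stretches of ADORA1, ADK and ADA lie within GENCODE exons of these genes.
ADORA2B, chr17:15944885-15944914, plus strand: cagcctccgagctcgaGCGTGACGggaagt
ADORA1, chr1:203127696-203127725, plus strand: ccccctcccggtgtgcggagcccgattgtc
ADK, chr10:74176692-74176721, plus strand: ccctccaatcagCACGCcgggccggctagc
ADA, chr20:44651704-44651733, minus strand: cccgttaagaagaGCGTGgccggccgcggc
SLC29A1, chr6:44219365-44219394, plus strand: cagtgCACGTGctcccaggtctcagggagg

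In the stretch of ADORA2B, GCGTG starts at position -229 from the RefSeq start, and TGACG, at -226, overlaps it, so that the capitals hold both. The whole window of ADORA1, of which the last 30 bases before the start are shown, held no match to any of the 3 motifs. ADK has 2 windows and the stretch is from the second, where GCGTG reads on the other strand as CACGC. SLC29A1, whose level overlapped between the groups, has ACGTG on both strands in the same 6 bases. Over the 14 windows, 6 (42.9%) held ACGTG or GCGTG, against 48.4% of 35116 windows of all genes, and 5 (35.7%) held TGACG, against 24.6%. Matches were thus found at genes that were higher, lower and overlapping, and they are a description of the letters only.

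The genes most like the receptors over the 5 libraries were found by the Euclidean distance between centred log2 CPM profiles. Such profiles carry the difference between the groups, so that near genes have like fold changes by construction. Many genes were alike: 1531 correlated with ADORA1 at a Pearson r of at least 0.95, 685 with ADORA2B and 41 with ADORA2A. The nearest are thus a few of many. For ADORA1 the nearest were MXD4, PFKFB2 and ZSCAN5A, at distances of 0.0813, 0.0862 and 0.109, with log2 fold changes of -1.38, -1.35 and -1.29. ADORA2B was nearest to PFKFB3, CXCR4 and GBE1, at distances of 0.277, 0.280 and 0.318, and these had log2 fold changes of 1.71, 1.84 and 1.63. PFKFB2 and PFKFB3 encode enzymes that make and break down fructose 2,6-bisphosphate, an activator of glycolysis. CXCR4 encodes a chemokine receptor and GBE1 the branching enzyme of glycogen. For ADORA2A, whose groups overlapped, they were AC019118.2, AC127070.4 and CYP2C8, at 0.0486, 0.114 and 0.151, with log2 fold changes of -0.29, -0.19 and -0.29.

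Other genes of purine and cAMP metabolism were taken from 11 lists of 114 genes in the annotation, of which 86 were tested. At an adjusted p under 0.05, 35 rose and 12 fell, or 54.7% against 33.4% of all genes tested, and the median log2 fold change was 0.29. Fewer were past the threshold without co-cultured replicate 1 or without co-cultured replicate 2. Each of these fits left a lone co-cultured library, and the spread was taken from the control libraries alone. By list, the share ran from 20% of intracellular NTPDases to 83.3% of cAMP-dependent protein kinase subunits. Nucleoside transporters (25%) and ectoenzymes (28.6%) were also below the 33.4% of all genes tested. Nothing particular to these lists is read from the shares. The lists were chosen with earlier results of these data known, and the genes named below are those with the smallest p of each list. Their adjusted p-values, from the edgeR test over all genes, are thus a description and not independent support.

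**Figure D5:**
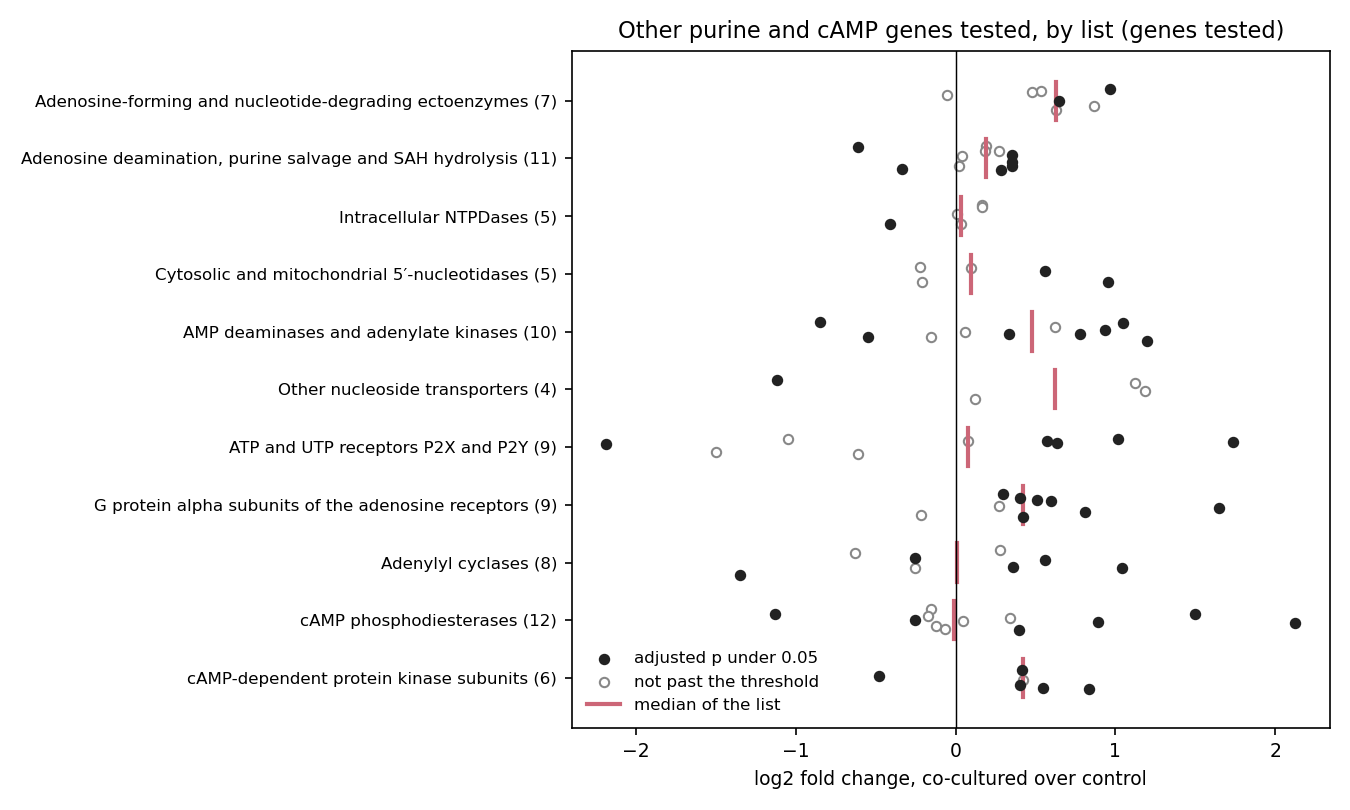
Log2 ratio of co-cultured to control cells for each tested gene of the 11 lists, with the number tested in parentheses. Filled points are past an adjusted p of 0.05, open points are not, and red lines are list medians. G protein alpha subunits lie mostly to the right of 0, with 7 of 9 higher, while adenylyl cyclases and phosphodiesterases spread to both sides.

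Around the surface steps, 2 of 7 tested ectoenzymes rose, of a list of 13 genes, and 5 were not past the threshold. ENPP4, which hydrolyzes extracellular dinucleotides, rose from 64.7 ± 8.07 CPM alone (SD, n = 3) to 101 ± 2.33 (SD, n = 2, log2 fold change 0.65, standard error 0.10, adjusted p = 0.00166). ENTPD3, a relative of ENTPD1, rose by 0.97 on the log2 scale (adjusted p = 0.0167). It had 36, 33 and 27 counts in control against 56 and 55 with HBMECs, with 51, 89 and 98 and then 49 and 32 counts on the opposite strand. ENTPD3 was no longer past the threshold without control replicate 3 (0.84), without co-cultured replicate 1 (1.10) or without co-cultured replicate 2 (0.85), and its value was -0.0021 in unstranded counts. Of the 5 tested NTPDases of intracellular membranes, ENTPD5 fell by 0.41 on the log2 scale (adjusted p = 0.0128; -0.28 and not past the threshold without co-cultured replicate 1) and 4 were not past the threshold. Among 4 tested nucleoside transporters, SLC29A3, found in lysosomes and mitochondria, fell from 4.52 ± 0.491 CPM alone (SD, n = 3) to 2.07 ± 0.315 (SD, n = 2), with a log2 fold change of -1.12 (adjusted p = 0.00547). Without co-cultured replicate 2 the value for SLC29A3 was -0.97 and not past the threshold.

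AMP is made from adenosine by ADK and returned to it by 5′-nucleotidases. Of the 5 tested cytosolic and mitochondrial 5′-nucleotidases, 2 rose and 3 were not past the threshold. NT5C3A, which acts mainly on pyrimidine monophosphates, rose from 110 ± 5.72 CPM alone (SD, n = 3) to 214 ± 22.4 (SD, n = 2, log2 fold change 0.96, standard error 0.089, adjusted p = 0.000124), and NT5C rose by 0.56 (adjusted p = 0.00377). Among 10 tested AMP deaminases and adenylate kinases, 5 rose and 2 fell. AK4, a mitochondrial adenylate kinase, rose from 67.4 ± 8.64 CPM alone (SD, n = 3) to 154 ± 38.6 (SD, n = 2), or 2.29-fold (standard error of the log2 fold change 0.15, adjusted p = 0.000509). AMPD3, which deaminates AMP to IMP, rose by 0.78 on the log2 scale (adjusted p = 0.00488), and AK9 fell by 0.55 (adjusted p = 0.00161). Of 11 tested genes of deamination, salvage and S-adenosylhomocysteine hydrolysis, 4 rose and 2 fell. ADA2, a secreted adenosine deaminase, fell from 37.8 ± 4.82 CPM alone (SD, n = 3) to 24.8 ± 0.116 (SD, n = 2), with a log2 fold change of -0.61 (adjusted p = 0.00455). MTAP, which salvages adenine from methylthioadenosine, fell by 0.34 (adjusted p = 0.00744), and DCK, a deoxynucleoside kinase, rose by 0.29 (adjusted p = 0.0288). Without co-cultured replicate 1, AMPD3 (0.50), ADA2 (-0.60), MTAP (-0.31) and DCK (0.32) were not past the threshold. The same held for ADA2 (-0.60), MTAP (-0.35) and DCK (0.27) without co-cultured replicate 2, and for DCK without control replicate 2 (0.27) or control replicate 3 (0.28).

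Of 17 genes with P2RX or P2RY symbols, receptors of ATP and UTP among them, 9 were tested, of which 4 rose and 1 fell. P2RX7, an ATP-gated channel, rose from 2.71 ± 0.578 CPM alone (SD, n = 3) to 5.47 ± 0.0121 (SD, n = 2, log2 fold change 1.02, standard error 0.23, adjusted p = 0.00820). P2RY2, a receptor of ATP and UTP, had 8, 3 and 7 counts in control against 20 and 16 with HBMECs, a log2 fold change of 1.73 (adjusted p = 0.0172), and P2RX5 rose by 0.57 (adjusted p = 0.0287). Without co-cultured replicate 1 or 2, all of these were not past the threshold, with 1.03 and 1.02 for P2RX7, 1.72 and 1.76 for P2RY2 and 0.61 and 0.55 for P2RX5, and neither was P2RX5 without control replicate 3 (0.55).

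Downstream of the receptors, 7 of 9 tested G protein alpha subunits rose and 2 were not past the threshold. Of all genes tested, 18.4% were higher and 15% were lower, which holds as the background for the next lists too. GNAI3, an inhibitory subunit, rose from 140 ± 0.930 CPM alone (SD, n = 3) to 199 ± 14.1 (SD, n = 2, log2 fold change 0.51, standard error 0.077, adjusted p = 0.00130). GNAZ, also of the inhibitory class, and GNAQ, which acts on phospholipase C, rose by 0.81 and 0.60 on the log2 scale (adjusted p = 0.000353 and 0.00169). The adenylyl cyclases, which make cAMP, were divided, with 3 higher and 2 lower of 8 tested. ADCY9 rose by 0.56 (adjusted p = 0.000610) and ADCY5 by 1.04 (adjusted p = 0.0127), while ADCY2 fell by 1.35 (adjusted p = 0.00267). Phosphodiesterases that break down cAMP gave 4 higher and 2 lower of 12 tested. PDE2A rose from 4.81 ± 0.821 CPM alone (SD, n = 3) to 21.0 ± 1.85 (SD, n = 2, log2 fold change 2.13, standard error 0.16, adjusted p = 4.99e-05). PDE4D rose from 15.7 ± 1.27 CPM alone (SD, n = 3) to 44.3 ± 3.09 (SD, n = 2), or 2.83-fold (adjusted p = 4.14e-05), and PDE1A fell by 1.13 (adjusted p = 0.00582). Of the subunits of cAMP-dependent protein kinase, 4 of 6 tested rose and 1 fell, with PRKACA, a catalytic subunit, higher by 0.83 on the log2 scale (adjusted p = 0.000204), PRKAR2A by 0.55 (adjusted p = 0.00253) and PRKACB by 0.40 (adjusted p = 0.00359). Without co-cultured replicate 1, ADCY2 (-1.15), ADCY5 (0.76) and PDE1A (-0.96) were not past the threshold, and without co-cultured replicate 2 neither was PRKACB (0.39).

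Endothelial cells express several of these genes, so endothelial markers were read beside them. Of 18 markers, 8 were tested and ESAM alone was past the threshold (12.5% of the 8, against 33.4% of all genes tested), with a log2 fold change of 2.14 (adjusted p = 0.00666) from 3, 4 and 6 counts in control to 21 and 14 with HBMECs. The summed level of the 18 was 10.1 to 19.6 CPM in control and 13.6 and 13.6 CPM in the co-cultured libraries. PECAM1 had 14, 10 and 3 counts in control and 18 and 11 counts after co-culture. KDR had 37, 27 and 2 in control against 12 and 4, TEK had 31, 24 and 0 against 6 and 3, and VWF had 159, 75 and 87 against 87 and 90, with the groups overlapping for each of these 4. On the opposite strand, KDR had 24, 20 and 0 counts in control against 0 and 1, and TEK had 25, 23 and 2 against 0 and 1. The summed level of the markers therefore may not be endothelial transcript alone. Of the 18, 8 markers stayed within the floor of 3 counts throughout, MMRN1 and PLVAP at 0 among them. Of 14 neuroendocrine markers, 13 were tested, and 5 rose and 2 fell, or 53.8% against 33.4% of all genes tested. CHGA had no more than 1 count in any library. The part of either marker list in the values of the adenosine genes was not tested.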

How the data were processed

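RNA-Seq of NCI-H209 cells was deposited by the authors as raw gene counts, 1 STAR count file per library, giving unstranded, forward and reverse counts. The submitters' processing notes name CASAVA 1.8, STAR 2.6.1b, DESeq2 and GRCh38. Of 64837 entries, 58780 matched GENCODE 29 by identifier. The authors' comparison table holds group means, fold changes and p-values, and only its gene symbols were used.

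Counts of the kit's strand were filtered with filterByExpr, normalized by TMM and compared with the quasi-likelihood test of edgeR 4.0.16 in R 4.3.3, adjusted by Benjamini-Hochberg over 20360 genes. CPM are scaled by TMM. Standard errors are the log2 fold change over the square root of F. Exon lengths are unions of annotated exons. The steps were run on simulated counts in which far fewer genes changed than were called here. How the scaling holds at the share called here was not tested. For 3 against 2 libraries the smallest exact permutation p is 0.1. No 2 replicates agreed within sampling noise.

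The genes and the lists were chosen with earlier results of these data known. All 10 genes and, of each pathway list, the 3 past the threshold with the smallest p are named. The alternatives were DESeq2 1.42.0, scaling by upper quartile or median ratio, a looser filter (1 count in some library), a stricter filter (10 counts throughout), unstranded counts, a replicate block and leaving out each library. Plots were drawn with matplotlib 3.10.9.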

Additional observations from a re-analysis of the deposited data

How the results depend on the processing

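The number of genes past the threshold was 6809 over all genes, 5 among the 8 adenosine genes tested and 47 among the other pathway genes. With each library left out in turn these ran from 2734 to 9897, from 3 to 5 and from 16 to 62. Over all genes and over the pathway genes the lowest numbers came without co-cultured replicate 1, which leaves 1 library in that group, and 3 of the 8 were also reached without control replicate 2 or 3. Replicate numbers were shared by the groups, and the deviations of same-numbered libraries from their group means correlated at -0.114 and -0.067. With 2 co-cultured libraries the deviations mirror each other, so these values can say little about pairing. The main fit did not take same-numbered libraries as pairs. With a replicate block the numbers were 4824, 3 and 31. Under the other alternatives each number stayed within 1.5 times, with 4 of the 8 past the threshold in unstranded counts, and the log2 fold changes of ADORA1 and ADK were past the threshold with the same sign under all 12 alternatives. ADORA2B lost it under 1 of 12, and ADA and SLC29A2 each under 5 of 12. ENTPD3 reversed to -0.0021 in unstranded counts. Of 323 values of the 27 named pathway genes under the alternatives, 290 kept sign and threshold, and in 32 the sign alone. Besides the left-out libraries, the replicate block took ENTPD3 (0.83), MTAP (-0.33), DCK (0.28) and P2RX5 (0.55) out of the calls, upper-quartile scaling DCK (0.21) and P2RX5 (0.49), and the filter of 1 count in any library DCK (0.29). Depth limits NT5E, ENTPD1 and ADORA3, and the filter of 10 counts in every library left ENTPD1 without a value.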
